A study of Sus scrofa with 2 samples.

Results

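The genes of prostaglandin synthesis, reception and breakdown were followed in the somatic cells of 2 antral follicles of 1 pig. The set held 10 genes of the 22342 in the deposited gene list, chosen by symbol: the cyclooxygenases PTGS1 and PTGS2, the prostaglandin E synthases PTGES, PTGES2 and PTGES3, the thromboxane synthase TBXAS1, the prostaglandin E receptors PTGER2 and PTGER4, the prostaglandin F receptor PTGFR, and HPGD, which oxidises prostaglandins to inactive products. All 10 were found in both libraries. The follicles came from a pubertal Landrace × Yorkshire gilt of 210 days that had received pregnant mare serum gonadotropin, were over 7 mm in diameter and were judged healthy, so both groups share animal, age, breed cross and hormone treatment, and no untreated follicle was measured. Granulosa cells from the flushed fluid, and cells freed with hyaluronidase from the cumulus-oocyte complexes, were handled together per the labels, and each follicle made 1 library (10x Genomics 3′ chemistry), called AF75 and AF76, with no replicate follicle. No test between follicles was therefore possible, intervals are 95% and cover counting error only, and a difference stated here is one between 2 libraries.

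Cyclooxygenases turn arachidonic acid, freed from membranes by phospholipases such as PLA2G4A, into prostaglandin H2, which terminal synthases convert to prostaglandin E2, thromboxane or other products. PTGS2 is the inducible cyclooxygenase. In the ovary the luteinising hormone surge induces it in granulosa and cumulus cells, and prostaglandin E2, acting on receptors that include PTGER2 and PTGER4, is needed for expansion of the cumulus and for rupture of the follicle. PTGFR receives prostaglandin F2α, which ends the life of the corpus luteum.

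Barcodes with 2000 to 5000 detected genes and under 7% mitochondrial unique molecular identifiers (UMIs, 1 per captured RNA molecule) were kept. These were 9362 of 14289 barcodes in AF75, with 111226504 UMIs and a median of 11255 per cell, and 7843 of 15548 in AF76, with 108920601 UMIs and a median of 13902. The libraries shared 18 kept barcode sequences. The kept cells carried granulosa markers, with INHA at 19854 and 23176 UMIs per 1000000 (CPM) in AF75 and AF76, all 8 measured granulosa markers summing to 30451 and 32034 CPM, and AMH at 0 in AF75. Markers of other cells were low. The 10 immune markers summed to 12.9 and 14.7 CPM, of which CD14 gave 9.35 and 6.84. The endothelial markers summed to 17.1 and 11.8 CPM with CDH5 at 0 in both. The red blood cell markers summed to 2.53 and 45.8 CPM, nearly all HBB. The platelet markers summed to 97.4 and 103 CPM, of which ITGA2B gave 94.5 and 101, with GP1BA at 0. Theca or stromal markers summed to 310 and 508 CPM, nearly all INSL3. Of the oocyte markers ZP2, ZP3, BMP15 and DAZL were at 0 in both and GDF9 was at 4.95 and 5.17 CPM, and the mast cell markers summed to 10.6 and 7.64 CPM, nearly all HDC. Because the libraries count 3′ ends, UMIs were not divided by gene length.

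The sequence before the start of 3 of the genes is shown because the cyclooxygenases, which catalyse the same reaction, had 952 UMIs (PTGS2) and 31 UMIs (PTGS1) in AF75, although 22 and 44 in AF76, and because PTGES was the most abundant of the set. Each run holds the 250 bases before the RefSeq gene start on the gene's own strand in Sscrofa11.1, with capitals for E-boxes (CANNTG) and for TGACG, part of the cAMP response element, on either strand.

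PTGS2: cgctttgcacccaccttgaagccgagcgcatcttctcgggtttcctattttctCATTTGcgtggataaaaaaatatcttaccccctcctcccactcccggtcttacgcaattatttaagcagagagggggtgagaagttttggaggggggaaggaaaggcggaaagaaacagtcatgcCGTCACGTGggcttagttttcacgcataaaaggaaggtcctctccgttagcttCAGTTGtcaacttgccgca

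PTGS1: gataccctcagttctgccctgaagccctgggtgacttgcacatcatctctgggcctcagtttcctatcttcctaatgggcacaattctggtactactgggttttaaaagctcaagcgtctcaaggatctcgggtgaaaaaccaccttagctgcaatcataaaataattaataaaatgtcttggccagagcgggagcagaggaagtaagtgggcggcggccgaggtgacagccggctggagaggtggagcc

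PTGES: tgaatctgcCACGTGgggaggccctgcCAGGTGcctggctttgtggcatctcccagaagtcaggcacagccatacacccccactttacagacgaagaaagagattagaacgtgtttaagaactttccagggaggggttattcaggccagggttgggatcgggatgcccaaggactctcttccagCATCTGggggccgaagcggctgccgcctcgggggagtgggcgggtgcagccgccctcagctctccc

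The PTGS2 run, at chr9:127858867-127859116 on the minus strand, held E-boxes starting 197, 69 and 19 bases before the gene start and a TGACG match 72 bases before it, which overlaps the second E-box. The PTGES run, at chr1:269924482-269924731 on the minus strand, held E-boxes 241, 223 and 66 bases before the start and no TGACG. Neither motif lay in the PTGS1 run, at chr1:262455856-262456105 on the plus strand. Over 19556 protein-coding genes 61.9% of such runs held an E-box and 19.6% a TGACG, and TATAAA, which was in none of the 3 runs, was in 9.77%. These are matches of letters only. In the same annotation PTGS2 (ENSSSCG00000015579) lies at chr9:127850164-127858866, PTGS1 (ENSSSCG00000005533) at chr1:262456106-262482159, PTGES (ENSSSCG00000005688) at chr1:269911785-269924481, PTGES2 (ENSSSCG00000022655) at chr1:268585725-268591356 and PTGES3 (ENSSSCG00000000406) at chr5:22000335-22022830. PTGFR (ENSSSCG00000039548) lies at chr6:134727334-134777067, PTGER2 (ENSSSCG00000021862) at chr1:181993961-182009959, PTGER4 (ENSSSCG00000024439) at chr16:25670832-25686556 and HPGD (ENSSSCG00000009699) at chr14:15718261-15773534, so that 4 of the 10 genes lie on chromosome 1.

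The set divided into 3 abundant genes and 7 scarce ones (see the plot of levels in both follicles). PTGES, the inducible microsomal synthase that is coupled to PTGS2, had 198 CPM (195 to 200.3) in AF75 and 194 CPM (192 to 197) in AF76. PTGES3, a cytosolic synthase better known as the HSP90 co-chaperone p23, was at 127 CPM (125 to 129) and 132 CPM (129 to 134). PTGFR was at 54.6 CPM (53.2 to 56.0) and 68.5 CPM (67.0 to 70.1). In AF75 PTGS2 came next at 8.56 CPM (8.02 to 9.12), above PTGES2, another E synthase, at 6.83 CPM (6.36 to 7.34), and in AF76 PTGES2 was at 7.45 CPM (6.94 to 7.98). The levels of the other genes were under 2 CPM in both follicles. In AF75 HPGD and PTGER4 could not be ordered at this depth, and neither could PTGS1, PTGER2 and TBXAS1. In AF76 the order went on with TBXAS1. From PTGER4 on, through PTGS1, HPGD, PTGS2 and PTGER2, each interval overlapped that of the next gene. Together the 10 genes gave 397 CPM and 405 CPM.

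**Figure D1:**
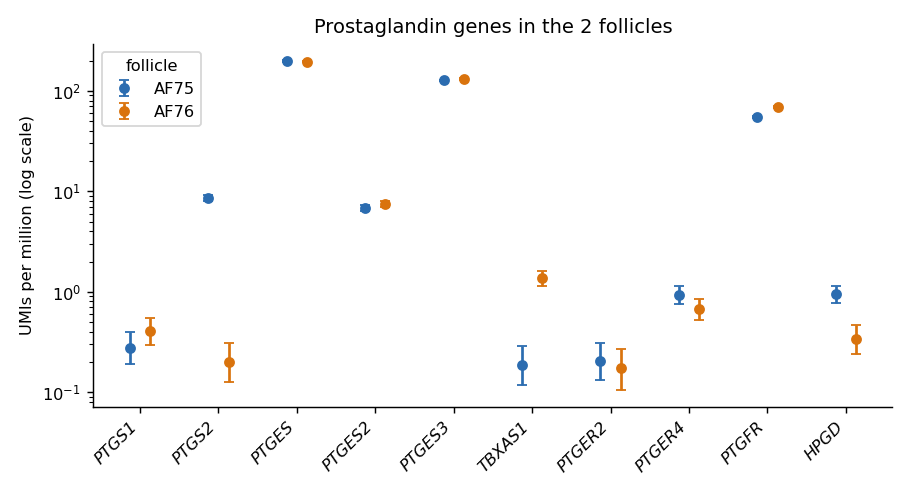
Level of each gene (UMIs per 1000000, log axis) in AF75 and AF76, 1 library each, with exact Poisson intervals. PTGES, PTGES3 and PTGFR lie above 50 CPM in both follicles, while PTGS2 lies at 8.56 CPM in one and 0.202 CPM in the other.

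Between the follicles PTGS2 was 42.4-fold lower in AF76 (27.8 to 67.9), with 952 UMIs in AF75 and 22 in AF76. TBXAS1 was 7.20-fold higher in AF76 (4.54 to 11.97), with 21 UMIs in AF75 and 148 in AF76, and HPGD was 2.78-fold lower (1.89 to 4.16), with 105 and 37 UMIs. With every cell thinned to 5000 UMIs the log2 ratio of HPGD went from -1.47 to -0.84 and HPGD had too few UMIs to be counted. PTGS2, TBXAS1 and HPGD were the members past 1.5-fold among the 8 with at least 50 UMIs in a follicle. Of all 11617 genes with that many UMIs, 8.85% were past 1.5-fold, 3.69% higher and 5.16% lower in AF76, and 10 genes had a lower ratio than PTGS2. The median log2 ratio of AF76 to AF75 was 0.01 over the 8 members and 8.1e-05 over all genes. PTGES was within counting error of equal, with a ratio of 0.983 (0.964 to 1.00), PTGES2 likewise at 1.09 (0.986 to 1.20), PTGES3 was at 1.04 (1.01 to 1.06), PTGFR at 1.26 (1.21 to 1.30) and PTGER4 at 0.717 (0.524 to 0.976). PTGS1, the constitutive cyclooxygenase, had 31 and 44 UMIs, and PTGER2 23 and 19, too few for a ratio to be counted.

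**Figure D2:**
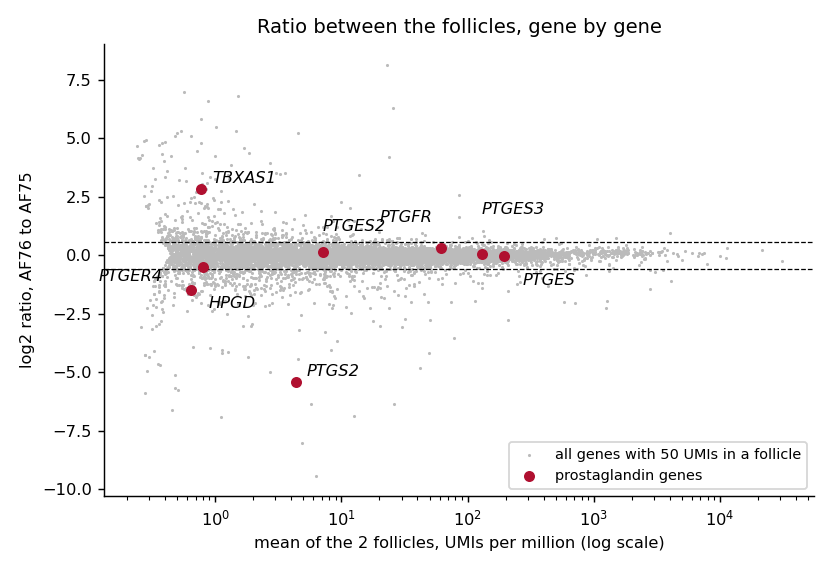
Log2 ratio of AF76 to AF75 against the mean level (UMIs per 1000000, log axis) for all 11617 genes with 50 UMIs in a follicle (grey) and the 8 prostaglandin genes among them (red). Dashed lines mark 1.5-fold; PTGS2 and HPGD lie below them, TBXAS1 above, and the other 5 between.

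PTGS2 was concentrated in few cells. In AF75 316 of 9362 cells held a PTGS2 UMI, which was 3.38% (3.02 to 3.76). Of these 189 held 1 UMI, 34 held 2, 73 held 3 to 9 and 20 held 10 or more. Those 20 cells carried 35.0% of all PTGS2 UMIs, with 68 in the highest. In AF76 17 of 7843 cells held a UMI, 0.217% (0.126 to 0.347), and none held more than 2. Leaving out the 50 AF75 cells of most PTGS2 UMIs, chosen after the values were seen, left 411 UMIs and an 18.4-fold difference (11.996 to 29.7). With every cell thinned to 5000 UMIs, which kept 9343 and 7738 cells, PTGS2 was found in 1.96% and 0.0646% of cells.

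**Figure D3:**
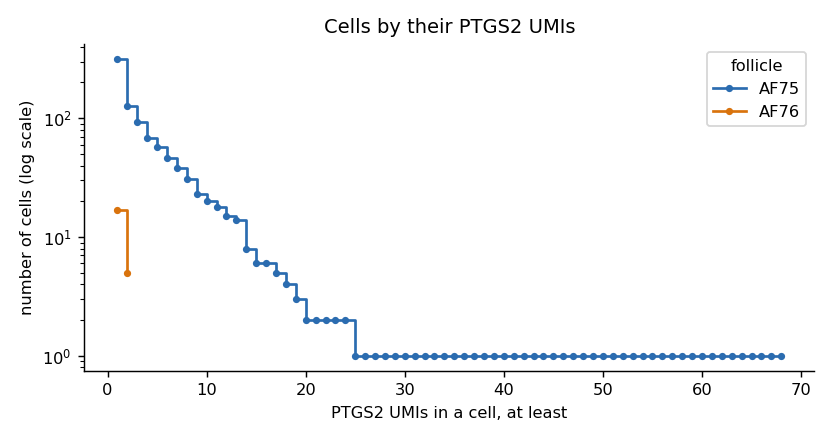
Number of kept cells (log axis) that hold at least a given number of PTGS2 UMIs, by follicle. AF75 has 316 cells with 1 or more and 20 with 10 or more, and AF76 has 17 cells, none with more than 2.

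The other genes were spread differently over cells. After thinning, the variance of UMIs per cell over their mean, which is 1 for random counting, was 5.51 for PTGS2 in AF75, 3.08 and 2.84 for PTGES in AF75 and AF76, 1.56 and 1.62 for PTGFR, and 1.02 and 1.03 for PTGES3. The 1% of cells with most UMIs held 73.2% of those of PTGS2 in AF75, 11.7% and 11.9% of those of PTGES, 11.3% and 9.80% of those of PTGFR, and 4.396% and 4.07% of those of PTGES3. Unthinned, PTGES was found in 68.4% and 75.1% of cells, PTGES3 in 74.7% and 80.0%, and PTGFR in 35.0% and 44.8%. At 5000 UMIs per cell PTGES was found in 47.6% and 49.2%, PTGES3 in 46.2% and 47.7%, and PTGFR in 19.5% and 24.6%. Barcodes with at least 20% globin UMIs, where these genes should be lacking, gave the level of free RNA. Of 46 in AF76, with a median of 3602 UMIs, 4 held PTGES (8.70%), 5 held PTGES3 (10.9%), 1 held PTGFR (2.17%) and none held PTGS2 or TBXAS1, which allows a share of up to 6.52%. The 12 such barcodes of AF75 held no UMI of any member, which allows up to 25%. PTGS1, PTGER2, PTGER4, HPGD, TBXAS1 and the PTGS2 of AF76 lay in at most 1.29% of cells, and PTGS2 of AF75 in 3.38%, all below these limits, so free RNA and expression could not be told apart for them by shares of all cells. For PTGS2 of AF75 the share differed between clusters, as given below.

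Cells of both follicles were clustered after anchor integration, with the prostaglandin genes left out of the variable genes. Cluster 0, led by TGFB3, ENPP2 and IL33, held 6326 cells of AF75 and 5830 of AF76. Cluster 1, led by ARPP21, ALPK2 and the hyaluronan synthase SHAS2, held 2384 and 1009, and its summed VCAN, SHAS2 and TNFAIP6, the cumulus markers, were at 8672 and 1474 CPM against 922 and 500.3 CPM in cluster 0. The mural markers AREG and CYB5A summed to 1213 and 4661 CPM in cluster 1 against 4090 and 6621 CPM in cluster 0. Cluster 2, led by DEFB1, CCL26 and CEMIP, held 1 and 675 cells, so cluster and follicle cannot be told apart there. Its leading genes included MYH11 and ACTA2 of contractile cells, and in AF76 its granulosa markers summed to 6410 CPM, with INHA at 2234 CPM, against 33690 CPM in cluster 0. The theca or stromal markers summed to 146 CPM there, the highest being ACTA2 at 61.5 CPM. In cluster 0 of AF76 they summed to 555 CPM, nearly all INSL3 at 549 CPM. The endothelial markers of cluster 2 in AF76 summed to 26.4 CPM and the immune ones to 11.9 CPM. Cluster 3, cycling-like and led by TOP2A, held 456 and 121, and its 4 measured cycling markers summed to 1214 and 1431 CPM. Cluster 4, led by ALDH1A2, SPP1 and SCG2, held 172 and 175. Cluster 5, with 23 and 33 cells, mixed immune and interferon response genes and was not compared. Because clusters are drawn from the same cells, differences between them are descriptions.

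PTGS2 was a gene of cluster 1 in AF75. That cluster held 746 of the 952 UMIs, at 28.1 CPM, 11.5-fold the level in the other cells of AF75. The cycling-like cluster followed at 13.9 CPM, then cluster 4 at 2.52 CPM and cluster 0 at 1.31 CPM. In AF76 cluster 1 held 3 PTGS2 UMIs, 0.202 CPM, cluster 0 held 10, 0.119 CPM, cluster 2 held 4, 0.837 CPM (0.228 to 2.14), and cluster 3 held 3, 1.35 CPM. The fold between follicles within a cluster was 139 (47.3 to 675) in cluster 1, 11.0 (5.73 to 23.6) in cluster 0 and 10.3 (3.42 to 50.7) in cluster 3. Cluster 1 did not hold like cells in both follicles. In a finer clustering 990 of its cells in AF75 but 40 in AF76 formed the cluster of most PTGS2, described below, while a finer cluster with 825 AF75 and 872 AF76 cells, 94.4% of them from cluster 1, had PTGS2 at 2.57 CPM (1.67 to 3.8004) and 0.234 CPM (0.0483 to 0.684).

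PTGES took the opposite course in AF75. It was highest in cluster 4, at 302 CPM, and in cluster 0, at 231 CPM, and lowest in cluster 1, at 114 CPM, with 127 CPM in the cycling-like cluster. In AF76 it was at 287, 189, 208 and 175 CPM in these 4 clusters and at 212 CPM in cluster 2. Cluster 1 was therefore below cluster 0 in AF75 and slightly above it in AF76, and PTGES within cluster 1 was 1.82-fold higher in AF76 (1.73 to 1.92) while within cluster 0 it was at 0.816 of AF75 (0.798 to 0.834). In the finer cluster of 825 and 872 cells, led by HBB, SFTPC and APOA1, PTGES was at 145 CPM (137 to 153) and 155 CPM (149 to 162), below the other cells of both follicles. In another finer cluster, with 541 and 73 cells all from cluster 1, its level was 124 CPM in AF75 against 277 in AF76, or 0.614 (0.569 to 0.661) and 1.43 (1.28 to 1.61) of the other cells. The 990 AF75 cells of the finer cluster of most PTGS2, at 54.3 CPM, had 40 counterparts in AF76. PTGFR was likewise lower in cluster 1, with 34.7 CPM in AF75 against 55.8 in AF76, than in cluster 0, with 63.6 and 70.0 CPM, and was highest in cluster 2 of AF76, at 92.9 CPM. PTGES3 stayed between 122 and 145 CPM in the clusters 0, 1, 3 and 4 of both follicles and was at 179 CPM in cluster 2 of AF76.

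**Figure D4:**
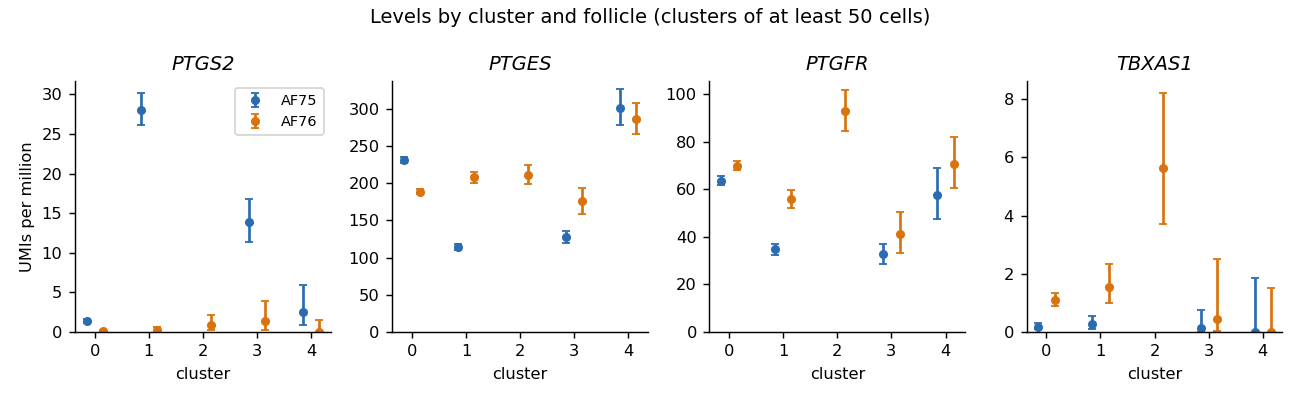
Level (UMIs per 1000000) of PTGS2, PTGES, PTGFR and TBXAS1 in the clusters with at least 50 cells in a follicle, with exact Poisson intervals. In AF75 cluster 1 has the highest PTGS2, 28.1 CPM, and the lowest PTGES, 114 CPM, and in AF76 cluster 2 has the highest TBXAS1, 5.65 CPM.

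With a fold of 2 over the other cells of the follicle as the limit, 2 of the 7 tested members were past it in cluster 1 of AF75 (PTGS2 higher, HPGD lower), where 11.1% of all genes were. In cluster 0 of AF75 2 of 7 were past it (HPGD higher, PTGS2 lower) against 9.7% of all genes. In cluster 3 2 of 7 were (PTGES2 lower, and HPGD, with 0 UMIs, 2.48-fold lower when bounded at 3 UMIs) against 10.4%. In cluster 4 it was 1 of 7 (PTGS2 lower) against 11.2%. A finer cluster of 458 AF75 cells led by TOP2A also held 0 HPGD UMIs. Its interval of the ratio reached 0.503, so the HPGD call rests on the bound. In AF76 6 members were tested. In cluster 2 TBXAS1 was higher, and PTGER4, with 1 UMI, was at a ratio of 0.303 (0.00756 to 1.74), against 34.2% of all genes, in cluster 0 TBXAS1 was lower against 9.22%, in cluster 3 TBXAS1, with 1 UMI, was at 0.326 (0.00819 to 1.84), against 12%, and none was past the limit in clusters 1 and 4, where 3.99% and 9.19% of all genes were. The intervals of both ratios that rest on 1 UMI include 1, so neither differed beyond counting error. PTGES and PTGFR were past it in no cluster at this resolution.

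A finer clustering into 13 clusters narrowed the PTGS2 cells further. One cluster, led by CALCRL, PTGS2 itself, ALPK2 and SOX9, held 990 cells of AF75, all of them from cluster 1, and 40 of AF76. In AF75 it held 702 PTGS2 UMIs, 73.7% of the total, at 64.9 CPM (60.2 to 69.9), in 161 of its cells (16.3%), against 2.49 CPM in all other AF75 cells. The 40 AF76 cells held no PTGS2 UMI, which 3 UMIs would bound only at 6.45 CPM. The AF75 cells had 54.3 CPM of PTGES (49.96 to 58.8) against 213 CPM in the other cells, a ratio of 0.255 (0.234 to 0.276), and 38.3 CPM of PTGFR against 56.3. PTGES3 was at 150 CPM against 125. PTGES2, at 0.290 (0.182 to 0.438) of the other cells, PTGER4, with 4 UMIs at 0.371 (0.0992 to 0.981), and HPGD, with 2 UMIs at 0.180 (0.0215 to 0.668), were also lower. TBXAS1, with 6 UMIs at 3.71 (1.18 to 10.1), was higher. PLA2G4A, the cytosolic phospholipase that releases arachidonic acid, was at 26.8 CPM against 4.29, a ratio of 6.25 (5.36 to 7.26). SLCO3A1, an organic anion transporter that carries prostaglandins, was at 72.5 CPM against 21.7, PTGFRN, a membrane protein that binds the prostaglandin F receptor, at 112 CPM against 53.6, and ANXA1, an annexin known as an inhibitor of phospholipase A2, at 106 CPM against 484. Past 2-fold in this cluster were 20.2% of all genes, 5.61% higher and 14.6% lower. In the 40 AF76 cells PTGES was at 168 CPM (133 to 209).

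Co-detection in single cells was measured after thinning to 5000 UMIs, as cells with UMIs of both genes over the number expected if the genes were independent. Of the 45 pairs of members 11 had at least 10 expected cells in AF75, 11 in AF76 and 8 in both, and none of the 8 was past 1.5 times expected in both follicles. The interval of the ratio lay below 1 in 2 of the pairs of AF75, both with PTGS2, and in none of AF76. Pairs over all genes were not counted, so whether these counts are particular to the members was not tested. PTGS2 and PTGES were found together in 40 cells where 87.1 were expected, a ratio of 0.459 (0.328 to 0.625), and PTGS2 and PTGFR in 22 where 35.7 were expected, 0.617 (0.387 to 0.934). PTGS2 and PTGES3 were found together in 88 cells where 84.5 were expected. PTGES and PTGES3, PTGES and PTGFR, and PTGES3 and PTGFR were between 0.975 and 1.02 times expected in both follicles. PTGS2 had too few cells in AF76 for any pair.

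The deficit of PTGES in PTGS2 cells was smaller when the cells were split by cluster. Of the 183 thinned AF75 cells with PTGS2, 21.9% held PTGES (16.1 to 28.6), against 48.1% of the cells without (47.1 to 49.2). Within the cluster of most PTGS2 the shares were 11.97% of 117 cells (6.70 to 19.3) and 21.2% of 871 cells (18.6 to 24.1). In the other clusters they were 39.4% of 66 (27.6 to 52.2) and 50.9% of 8289 (49.9 to 52.0). The share was thus lower in PTGS2 cells in both. The intervals overlapped, only just in the cluster of most PTGS2, which does not show that the shares were equal. On unthinned UMIs within the cluster, PTGES was at 49.7 CPM in cells with PTGS2 and 55.3 CPM in cells without, a ratio of 0.8999 (0.716 to 1.12). PLA2G4A differed within the cluster, at 48.7 CPM in cells with PTGS2 and 21.99 CPM in those without, a ratio of 2.21 (1.71 to 2.84), although only 13.7% (8.02 to 21.3) and 8.38% (6.63 to 10.4) of thinned cells held it. In RefSeq PLA2G4A (plus strand) overlaps PTGS2 (minus strand) on chromosome 9, and the part of this overlap in the counts was not tested.

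**Figure D5:**
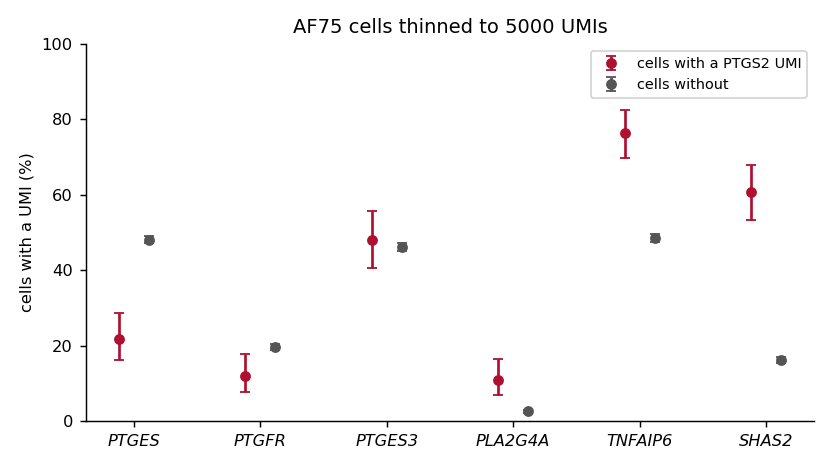
Share of AF75 cells (%) with a UMI of each gene among the 183 cells with a PTGS2 UMI (red) and the 9160 without (grey), all thinned to 5000 UMIs, with Clopper-Pearson intervals. PTGES was found in 21.9% of PTGS2 cells and 48.1% of the others, and SHAS2 in 60.7% and 16.2%.

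Some of the ovulatory genes were higher in PTGS2 cells and others were lower. SHAS2 was found in 60.7% of the PTGS2 cells of AF75 and in 16.2% of the others, 3.56 times the number expected together (2.93 to 4.28), and the share of cells with PTGS2 was 0.929% at 0 SHAS2 UMIs, 5.48% at 1 or 2 and 9.84% at 3 to 9. Within the finer cluster of most PTGS2 SHAS2 was found in 78.6% (70.1 to 85.7) of cells with PTGS2 and 70.7% (67.6 to 73.7) of those without, and TNFAIP6 in 87.2% (79.7 to 92.6) and 85.0% (82.4 to 87.3), so that the excess was smaller there. In the other clusters SHAS2 was found in 28.8% (18.3 to 41.3) of cells with PTGS2 and 10.4% (9.80 to 11.1) of those without. For TNFAIP6 the shares in the other clusters were 57.6% (44.8 to 69.7) and 44.6% (43.6 to 45.7), with intervals that overlapped. Over all cells TNFAIP6, whose protein links hyaluronan to proteins, was at 1.56 times (1.31 to 1.84), and the EGF-like ligand EREG at 1.89 times (1.25 to 2.75). AREG, another EGF-like ligand, was at 0.656 times (0.537 to 0.795) and ANXA1, of the wider lipid mediator list, at 0.581 times (0.445 to 0.747). By unthinned CPM in cells with PTGS2 over cells without, VCAN was at 2.84 (2.80 to 2.88), the progesterone receptor PGR at 1.13 (1.06 to 1.20) and the protease ADAMTS1 at 1.08 (1.02 to 1.15). The hyaluronan receptor CD44 was at 0.681 (0.645 to 0.718) and RGS2, a regulator of G protein signalling, at 0.705 (0.681 to 0.729). PTX3, at 0.745 (0.439 to 1.19), and the luteinising hormone receptor LHCGR, at 0.774 (0.516 to 1.12), did not differ beyond counting error. Within the finer cluster of most PTGS2 AREG went the other way, at 507 CPM in cells with PTGS2 and 302 CPM in those without, a ratio of 1.67 (1.56 to 1.80). PTX3 was at 5.64 and 0.677 CPM there, a ratio of 8.33 (2.83 to 27.4), which rests on 17 UMIs in 7 cells. There VCAN was at 1.03 (1.01 to 1.04), RGS2 at 0.718 (0.674 to 0.764) and CD44 at 0.898 (0.814 to 0.988), and LHCGR at 0.827 (0.407 to 1.54) did not differ beyond counting error. Between the follicles 6 of the 11 tested ovulatory genes were past 1.5-fold, 5 of them lower in AF76, beside 8.85% of all genes past it and 5.16% lower. SHAS2 was 28.5-fold lower (25.4 to 32.0), VCAN 4.82-fold, TNFAIP6 4.03-fold, EREG 1.83-fold and PTX3 1.74-fold, and AREG was 1.92-fold higher. The median log2 ratio of the 11 was -0.30.

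Among the receptors PTGFR was the only abundant one. PTGER4 had 104 UMIs in 90 cells of AF75 and 73 in 65 cells of AF76, and PTGER2, the receptor best known from expanding cumulus, had 23 UMIs in 19 cells and 19 in 18 cells. In AF75 cluster 1 held 14 of the 23 PTGER2 UMIs, at 0.527 CPM (0.288 to 0.885), against 7 in cluster 0, at 0.0933 CPM (0.0375 to 0.192), and in AF76 9 of 19 lay in cluster 2. In RefSeq PTGER2 overlaps PTGDR on the same strand, so reads between the 2 could not be split with certainty. PTGER3, of the wider list, had 32 and 66 UMIs, of which 44 in AF76 lay in cluster 2.

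HPGD was rare and uneven. Its 105 UMIs in AF75 came from 44 cells, of which 1 held 26, and its 37 in AF76 from 17 cells. In AF75 98 UMIs lay in cluster 0, at 1.31 CPM against 0.188 CPM in cluster 1, and in AF76 all 37 lay in cluster 0. Without the AF75 cell of most UMIs the level was 0.710 CPM and the ratio of AF76 to AF75 0.478 (0.315 to 0.715).

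TBXAS1 is best known from platelets and macrophages. Its 148 UMIs in AF76 came from 101 cells, with 92 UMIs in cluster 0, at 1.09 CPM, 23 in cluster 1, at 1.55 CPM, 27 in cluster 2, at 5.65 CPM, and 5 in cluster 5. In the finer clustering 16 of the 148 lay in 9 of 31 AF76 cells led by WNT6, KRT8 and CYP27A1, at 52.0 CPM (29.7 to 84.4). Another finer cluster, of 644 AF76 cells led by CEMIP, held 11, at 2.46 CPM, or 1.88 (0.915 to 3.46) of the other cells. Together these finer clusters match cluster 2 in cells and in TBXAS1 UMIs, so its level was carried largely by the 31 cells. The 10 immune-like cells kept in AF76 held 5 TBXAS1 UMIs, 3.38% of the total, and without them the ratio of AF76 to AF75 was 6.96 (4.38 to 11.6). Over all 101 TBXAS1 cells the immune markers summed to 135 CPM, against 13.1 CPM in the AF76 cells without TBXAS1, and over the 98 that were not immune-like, a choice that lowers the sum, to 9.90 CPM. HBB was at 911 CPM in these 98 cells and 34.2 CPM in the cells without TBXAS1, 1 cell holding 1274 HBB UMIs, and was found in 15.3% and 13.2% of cells; its part in the result was not tested. Within cluster 0 alone TBXAS1 was 6.31-fold higher in AF76 (3.51 to 12.3).

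Of the 42 genes of a wider list of prostaglandin and related lipid mediator genes, 33 were in the gene list under their symbols, 31 had a UMI and 23 were tested between the follicles. In AF76 PTGIS, the prostacyclin synthase, and PTGER3 were higher past 1.5-fold, and PLA2G4A, at 0.585 of AF75 (0.517 to 0.661), and the thromboxane receptor TBXA2R, at 0.645 (0.485 to 0.854), were lower. That was 17.4% of the list's tested genes beside 8.85% of all genes, and the median log2 ratio was 0.07. PTGIS had 3 UMIs in AF75 and 51 in AF76, 44 of them in cluster 2, a ratio of 17.4 (5.61 to 87.0). At 5 CPM or more in a follicle were ANXA1 (447 CPM in AF75 and 653 CPM in AF76), PTGFRN (59.2 and 41.9 CPM), PLAA, an activator of phospholipase A2 (47.8 and 42.8 CPM), AKR1B1, an aldo-keto reductase with prostaglandin F synthase activity (28.9 and 28.1 CPM), ZADH2, a prostaglandin reductase (27.4 and 33.8 CPM), SLCO3A1 (26.6 and 19.96 CPM), PTGR2, another reductase (17.6 and 17.3 CPM), PLA2G4B (7.68 and 7.39 CPM), PLA2G4A (6.48 and 3.79 CPM) and LTA4H, of leukotriene synthesis (4.81 and 6.56 CPM).

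For PTGES, PTGES3 and PTGFR, the members found in 10% or more of the cells of both follicles, the genes of most similar pattern over cells were sought among 7216 genes by Pearson's correlation of log counts per 10000, taking the lower of the follicles' values. For PTGES these were ENSSSCG00000006719, CYB561, TGM2, RBM47 and FLVCR2, between 0.134 and 0.171. For PTGES3 they were NCL, HSP90AB1, ENSSSCG00000015988, HNRNPU and HSPA4, at most 0.0863, and for PTGFR they were ABL2, CHCHD3, FAM171B, CYP11A1 and LIMCH1, at most 0.107. Cells of 1 follicle share a library and differ in depth, and correlations this weak in sparse counts are given as values only.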

How the data were processed

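Somatic cells of 2 antral follicles were measured, 1 library each. The authors deposited whole UMI counts per gene and barcode, made with Cell Ranger on Sscrofa11.1, with no normalization. The labels number the follicles 1 and 2, and the submitters' names for the deposited data link them to AF75 and AF76. The members and gene lists were chosen with earlier results of these data known.

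Levels are UMIs summed over kept cells per 1000000 (CPM). Intervals at 95% are exact Poisson for CPM, Clopper-Pearson for the share of cells and exact conditional for a ratio, and 3 UMIs bound a count of 0. Ratios between follicles were counted over genes with 50 UMIs in a follicle, and in clusters over genes with 50 UMIs in the follicle. Cells were clustered in Seurat 5.3.0 (R 4.3.3) on 2000 variable genes and 40 components, at resolution 0.2, the lowest in steps of 0.02 with 6 clusters, and at 0.8 for the finer clusters. The 10 leading genes of a cluster were those of largest fold at 50 CPM or more. Immune-like cells had 10 or more UMIs over 3 or more immune markers. Doublets were not removed, since the rule for cells does not include them; a score in the manner of DoubletFinder was used as an alternative (the highest 6.9% removed, 646 and 541 cells). Named were all members, genes of the wider list at 5 CPM or more, and the 5 genes of most similar pattern. Genes outside these rules, the splits of PTGS2 and TBXAS1 cells and the cells left out were chosen after values were seen. Symbols came from the deposited list and, for 1042 of 7356 genes without one, from a reference table. Sequences and positions came from RefSeq. Other steps used Python 3.11.15, numpy 2.4.6 and scipy 1.17.1. On simulated counts of the follicles 200 of 200 changed genes were recovered among 11465 tested, and 26 of 11265 unchanged genes passed the fold. Of the leading genes of the finer cluster of most PTGS2, 1 is not reported here.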

Additional observations from a re-analysis of the deposited data

Results flagged for a closer look

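The order of PTGES between clusters differed between the follicles. In cluster 0 its level over that of the other cells of the follicle was 1.81 in AF75 and 0.885 in AF76. In cluster 1 it was 0.510 in AF75 and 1.08 in AF76. The difference was not tested, since each follicle was 1 library. The make-up of cluster 1 differed between the follicles, and its part in the result was not tested. Its finer cluster of most PTGS2, with PTGES at 54.3 CPM in AF75, had 990 cells in AF75 and 40 in AF76. In a finer cluster present in both, with 825 and 872 cells, PTGES was at 0.715 and 0.779 of the other cells, the same direction in both follicles. In another finer cluster, with 541 and 73 cells, PTGES was at 0.614 (0.569 to 0.661) in AF75 and 1.43 (1.28 to 1.61) in AF76, opposite directions. Of the finer clusters almost wholly outside cluster 1, that of 2331 and 1569 cells had PTGES at 1.46 and 1.24 of the other cells. That of 1753 and 1699 cells had it at 1.52 and 1.17, and that of 1393 and 1793 at 0.753 and 0.627. That of 714 and 520 had it at 1.07 and 1.16. Each of these went the same way in both follicles. That of 28 and 34 cells, at 1.12 (0.883 to 1.40) and 0.942 (0.750 to 1.17), did not differ beyond counting error.

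Some of the scarcest genes had a higher CPM in the barcodes outside the limits on genes and mitochondrial UMIs than in kept cells. The share of barcodes with a UMI was lower there. For TBXAS1 it was 0.142% against 0.214% in AF75 and 0.493% against 1.29% in AF76, and for PTGER2 0.143% against 0.230% in AF76. TBXAS1 was at 1.13 CPM in these barcodes of AF75, where 12 of its 16 UMIs lay in 3 immune-like barcodes, and at 3.24 CPM in those of AF76, from 60 UMIs, against 0.189 and 1.36 CPM in kept cells. All 18 immune-like barcodes of AF76 together held 9 TBXAS1 UMIs, 5 of them in kept cells. PTGER2 was at 0.595 CPM in AF76, from 11 UMIs, against 0.174 CPM in kept cells.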

How the results depend on the processing

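No replicate could be left out and no paired analysis was possible because each follicle was 1 library. The summed level of the 10 genes moved to 393 CPM in AF75 with all deposited barcodes, to 450.2 and 465 CPM in AF75 and AF76 with totals without mitochondrial and ribosomal protein genes, and to 409 CPM in AF76 as a mean of per-cell CPM. The number of members past 1.5-fold was 3 with other limits on cells, without doublets, with other totals and with no minimum of UMIs. It was 4 as a mean of per-cell CPM, PTGER4 being added, 2 of 6 tested after thinning, HPGD having too few UMIs, and 1 of 5 with a minimum of 200 UMIs, which was PTGS2. After thinning 2 of the members' log2 ratios left their intervals and 6 stayed within them. That of HPGD moved from -1.47 to -0.84. Without the 50 AF75 cells of most PTGS2 UMIs, an alternative added after the data were seen, the log2 ratio of PTGS2 moved from -5.41 to -4.20. No ratio of the 8 members changed sign under any alternative run. The 11 calls of a member past 2-fold in a cluster became 17 with 20 components and 17 with doublets removed before clustering. At resolution 0.8, with 13 clusters, there were 27, PTGES and PTGFR among them. Of these alternatives the share of all genes was counted only for the finer cluster of most PTGS2 in AF75, where it was 20.2%. Whether the calls of all genes rose alike was therefore not tested. The cluster with most PTGS2 UMIs of AF75 held between 49.6% and 78.4% of them over the 6 clusterings, with PTGES at 0.255 to 0.510 of the other cells. The count of pairs past 1.5 times expected in both follicles stayed 0. PTGS2 with PTGES in AF75 was at 0.731 of expected in unthinned cells, 0.60 at 8000 UMIs, 0.620 without doublets and 0.886 (0.525 to 1.40) in cells of cluster 0 alone, where the deficit was not detectable. Of the 15 genes of most similar pattern 9 were found again after thinning and 13 by Spearman's correlation. PTGS1 and PTGER2 in both follicles, PTGS2 and HPGD in AF76 and TBXAS1 in AF75 rest on 44 UMIs or fewer, which sets the width of their intervals.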

Other observations

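In AF75 the genes whose counts went most closely with those of PTGS2 over single cells included ALPK2, at 183 CPM in cells with PTGS2 and 18.9 CPM in cells without, the inhibin subunit INHBB, at 337 and 58.1 CPM, ARPP21, at 243 and 44.6 CPM, and the matrix glycoprotein THBS1, at 1465 and 320 CPM. In AF76 ALPK2 was at 0.211 CPM and ARPP21 at 0.643 CPM, against 24.98 and 52.0 CPM in AF75. These genes were chosen after their values were seen.

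In AF75 3 immune-like barcodes held 46 PTGES3, 12 TBXAS1, 4 PTGS1, 3 PTGER2 and 2 PTGFR UMIs and no PTGES. In AF76 18 held 12 PTGES3, 9 TBXAS1, 6 PTGES, 4 PTGS1, 2 PTGS2 and 2 PTGFR UMIs. Barcodes of AF75 with under 2000 genes had 112 PTGS2 UMIs, 14.4 CPM (11.8 to 17.3), and 125 CPM of PTGES.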
